A study of Homo sapiens with 12 samples.

Results

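The comparison described here sets HepG2 cells silenced for CPSF6 (siCPSF6) against control cells (siNC), both taken 3 h after transcription was stopped with actinomycin D. It holds 4 of the 12 libraries of the study, the 2 libraries of each arm at that time, and 12939 of the 22148 genes listed, those with a mean normalized count of at least 20 over all 12 libraries. The members were chosen by sample label and by that mean, not by any difference between the arms.

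CPSF6 and the smaller NUDT21 together form cleavage factor Im, which binds nascent RNA at UGUA motifs upstream of cleavage sites. Cleavage factor Im favours distal poly(A) sites, so that its loss is known to shorten the 3′ UTRs of many mRNAs in human cell lines. Actinomycin D intercalates into DNA and halts RNA polymerases; what is left after some hours is the RNA that was made before and has not yet decayed, so that a difference at this time holds both the starting level and the rate of loss.

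HepG2 is a human liver cancer line that keeps many hepatocyte features. Per the labels' protocols, cells were transfected with siRNAs against CPSF6 or with the control siRNA and cultured for 48 h, and actinomycin D was then given at 5 µg/ml to both arms. Cells were collected at 0, 3 and 6 h, with 2 biological replicates in each of the 6 groups, and each mRNA library started from 5 µg of total RNA mixed with ERCC spike-ins, RNAs of known amount. The labels do not say how many CPSF6 siRNAs were used or whether they were pooled.

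The deposited normalized counts at 3 h summed to 28180129 and 27642662 in the siCPSF6 libraries and to 28252230 and 27116830 in the siNC libraries. The spacing of the rounded values gave an estimated 30300000 and 21800000 reads behind the siCPSF6 libraries and 22400000 and 21800000 behind the siNC libraries. Spike-ins took 1.429% and 1.128% of the siCPSF6 libraries and 1.321% and 1.28% of the siNC libraries. All 11 liver markers checked were present, with ALB (albumin) at 225826 and 244386 in siCPSF6 cells against 251842 and 226743 in siNC cells. Of 14 stromal, endothelial and immune markers, 4 (COL1A2, PTPRC, CD3E and MS4A1) were not analysed here, COL3A1, CDH5 and VWF stood at 4 or below in every library of 3 h, and 7 passed the filter. Those 7 summed to 15886 and 10696 in siCPSF6 cells against 22330 and 15742 in siNC cells, most of it LYZ (lysozyme). Among them CD14 was higher in siCPSF6 cells, at 179 and 179 against 38 and 51 in siNC cells, and ACTA2 (smooth muscle actin) was lower, at 299 and 291 against 531 and 601.

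Silencing still held after 3 h in the drug. CPSF6 had 674 and 801 normalized counts in siCPSF6 cells against 3389 and 3309 in siNC cells, a log2 difference of -2.19 (SE 0.09, adjusted p = 1.2e-10, limma with Benjamini-Hochberg adjustment over the 12939 genes). The same difference was -1.51 at 0 h and -2.17 at 6 h, and that at 3 h differed from that at 0 h by -0.68 (SE 0.12, adjusted p = 0.0082). In TPM, which also divides by transcript length, the arms stood further apart, at 4.59 and 5.49 TPM in siCPSF6 cells against 34.8 and 33.0 TPM in siNC cells. Throughout, log2 differences are siCPSF6 minus siNC of the group means of log2(normalized count + 1), so that 1 is about a 2-fold higher level in siCPSF6 cells. On this scale the changes of weakly expressed genes are understated, and in RNA from many cells a lower level cannot be told apart from fewer cells that hold the transcript.

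More than 1 gene in 2 differed between the arms at 3 h. Of the 12939 genes, 7154 (55.3%) passed an adjusted p of 0.05 in limma, 3394 (26.2%) higher and 3760 (29.1%) lower in siCPSF6 cells. Most of these differences were small: 795 genes were higher and 692 lower by over 2-fold, 85 higher and 63 lower by over 4-fold, and 10 higher and 8 lower by over 8-fold. The median log2 difference over all genes was -0.03 and the median SE 0.12. In TPM, 5423 genes passed, 3162 higher and 2261 lower, so that the share of calls on the higher side was 58.3% there against 47.4% in the normalized counts. Among 6751 genes called in the counts and present in the TPM fit, 6551 had the same sign in both, and 43 were called in opposite directions.

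The largest changes are described among genes with a mean of at least 100 over all 12 libraries and with groups that did not overlap. That mean covers both arms, so that some genes reach it only through the arm where they are higher. Examples among the rises are UGT1A1, PLA2G3, FRMD3, APOA4 and FBN1. Among the falls they are MIX23, LINC00641, SMIM14, NKAP, PIP5K1B, F7, ACOT11 and OXER1. Their differences are to be read with this limit. The 15 largest rises included 3 genes of the extracellular matrix. MMP2, a matrix metalloproteinase that cleaves type IV collagen, had 1357 and 1166 counts in siCPSF6 cells against 132 and 118 in siNC cells (log2 difference 3.32, SE 0.13, adjusted p = 1.2e-10). VCAN, the matrix proteoglycan versican, had 1954 and 1682 counts against 346 and 238 in siNC cells (2.65, SE 0.14, adjusted p = 9.4e-09). FBN1, which encodes the microfibril protein fibrillin, had 183 and 180 against 25 and 41 in siNC cells (2.46). Groups that did not overlap were a condition of this choice, and over all genes tested this held for 78.0%.

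IGFBP4, a secreted protein that binds insulin-like growth factors, had 10949 and 9441 counts in siCPSF6 cells against 1654 and 1836 in siNC cells (2.54, SE 0.09, adjusted p = 9.3e-11). BMP4, a ligand of the TGF-beta superfamily, had 2036 and 1685 against 386 and 304 in siNC cells (2.43, SE 0.14). Both siCPSF6 values of each gene were above both siNC values, as the choice of genes required.

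CHST14, a sulfotransferase that builds dermatan sulfate, had 1721 and 1549 counts in siCPSF6 cells against 239 and 233 in siNC cells (2.79, SE 0.09). PLA2G3 (a secreted phospholipase), FRMD3 and HABP4 rose by 2.88, 2.74 and 2.40. UGT1A1, which glucuronidates bilirubin, had 253 and 182 counts against 29 and 24 in siNC cells (2.98), and SCO2, a copper chaperone of cytochrome c oxidase, had 518 and 523 against 81 and 81 (2.67). UGT1A1 shares exons with the other UGT1A genes and CDR2 (2.49) with RRN3P3. The SCO2 entry shares 100% of its exonic bases with TYMP and another entry of SCO2 itself. APOA4 (2.73, an apolipoprotein of lipid absorption) and HABP4 overlap genes on the opposite strand. The source of the reads of all these genes is uncertain.

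**Figure D1:**
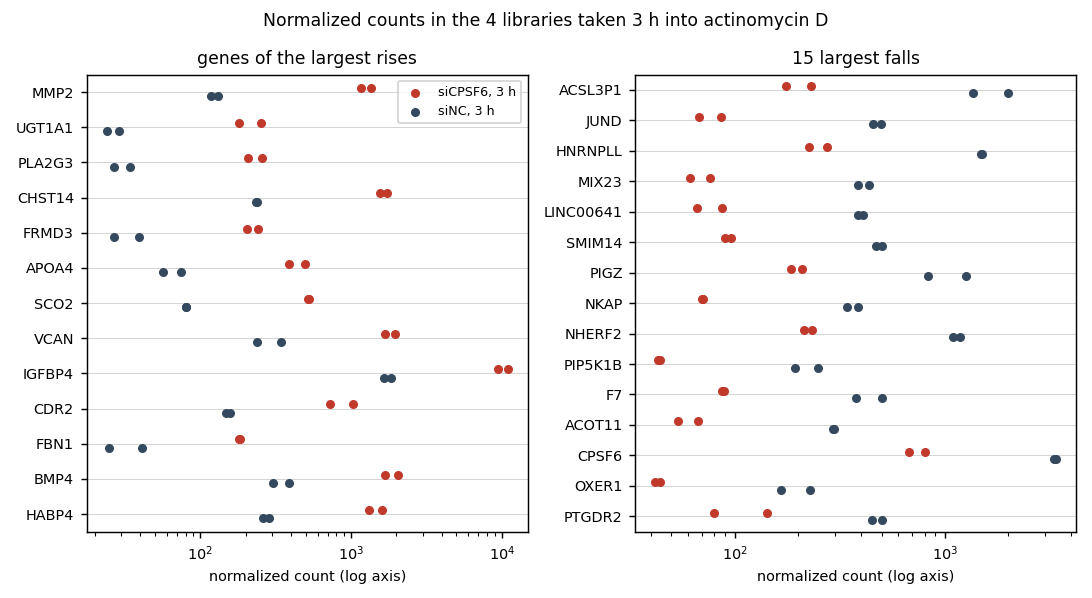
Normalized counts (log axis) of 13 of the 15 genes with the largest rise (left) and of the 15 with the largest fall (right) at 3 h, with 1 point per library in red for siCPSF6 and in dark blue for siNC. All 28 genes shown were chosen for 2 siCPSF6 points that do not overlap the 2 siNC points. On the left MMP2 lies at 1357 and 1166 against 132 and 118, and on the right ACSL3P1 at 230 and 176 against 1995 and 1354.

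The 15 largest falls included CPSF6 itself and regulators of transcription and RNA. JUND, a subunit of the AP-1 transcription factor, had 86 and 68 counts in siCPSF6 cells against 454 and 494 in siNC cells (-2.62, SE 0.17, adjusted p = 1.2e-08). HNRNPLL, an RNA-binding regulator of splicing, had 225 and 276 against 1504 and 1488 in siNC cells (-2.58, SE 0.12, adjusted p = 5.4e-10). NKAP, a nuclear protein linked to splicing and to repression of transcription, had 71 and 70 against 388 and 344 in siNC cells (-2.36). The siNC values of these 3 genes were about level with each other between replicates, and the groups lay apart as the choice of genes required.

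F7, which encodes coagulation factor VII, had 89 and 87 counts in siCPSF6 cells against 500 and 376 in siNC cells (-2.29, SE 0.17, adjusted p = 7.9e-08). NHERF2, a scaffold for membrane transporters, had 233 and 213 against 1179 and 1090 in siNC cells (-2.34, SE 0.14), and PIGZ, a mannosyltransferase of GPI anchor synthesis, had 185 and 208 against 1255 and 828 (-2.37). Receptors were represented by OXER1 (-2.15) and PTGDR2 (-2.15), and lipid enzymes by PIP5K1B (-2.31) and ACOT11 (-2.28). MIX23 (-2.58), SMIM14 (-2.37) and the noncoding LINC00641 (-2.37) fell as well. ACSL3P1, with the largest of these falls (-3.02), is annotated as a pseudogene of the acyl-CoA synthetase gene ACSL3; ACSL3 itself had 9653 and 8705 counts in siCPSF6 cells against 5069 and 4811 in siNC cells (0.89), and reads of such near-identical copies can be assigned to either.

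The most abundant RNAs moved little or only moderately. MT-RNR2, the large mitochondrial rRNA, had 872443 and 906207 counts in siCPSF6 cells against 859612 and 837402 in siNC cells (0.07, adjusted p = 0.40). MT-CO1, a cytochrome c oxidase subunit, and EEF1A1, a translation elongation factor, did not pass either, at 0.04 and -0.04. FTL, the ferritin light chain, had 335694 and 361493 counts in siCPSF6 cells against 445319 and 459993 in siNC cells (-0.38, SE 0.07, adjusted p = 0.00034). APOB, the structural protein of very low and low density lipoproteins, had 475972 and 414796 against 231710 and 224820 in siNC cells (0.96, SE 0.08, adjusted p = 1.6e-07), so that the siCPSF6 cells held about 2-fold more of it.

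Classes of RNA differed in their balance of calls. Among 11713 protein-coding genes 3261 were higher and 3435 lower, with a median log2 difference of -0.01. Of 697 long noncoding RNAs 75 (10.8%) were higher, against 26.2% of all genes, and 206 (29.6%) lower, close to the 29.1% of all genes, with a median of -0.21. Pseudogenes had 43 higher (10.7%) and 88 lower (21.9%) of 401 (median -0.16). Fewer genes were called at low levels: 35.5% of those with a mean of 20 to 100 passed, against 64.5% of those with a mean of 1000 to 10000, so that counts of calls in weakly expressed classes are limited by precision. LINC01140 had 208 and 196 counts in siCPSF6 cells against 3 and 4 in siNC cells, and passed the filter on the mean through the siCPSF6 libraries alone, so that no fold or test is given for it.

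Among the RNAs that fell most in control cells between 0 and 6 h, more were higher than lower in siCPSF6 cells at 3 h. Genes were divided into 5 classes of equal size by their change in siNC cells between 0 and 6 h under spike-in scaling, which uses none of the 3 h libraries. In the class with the largest fall (median log2 change -2.53), 35.4% of 2588 genes were higher and 16.8% lower at 3 h, with a median log2 difference of 0.17. This class also holds genes that fell only late. FAM120A, for example, had siNC counts of 2358 and 2325 at 0 h, 3368 and 3208 at 3 h, and 823 and 721 at 6 h. In class 4 (median log2 change -0.12) the balance was the other way, with 20.4% higher, 36.2% lower and a median of -0.11. Class 5 (median log2 change 0.42) had 25.7% higher and 31.0% lower. Its log2 changes ran from 0.13 to 3.7, so that it is a class of rising values rather than of slow loss. These are descriptions over genes, which are not independent replicates.

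**Figure D2:**
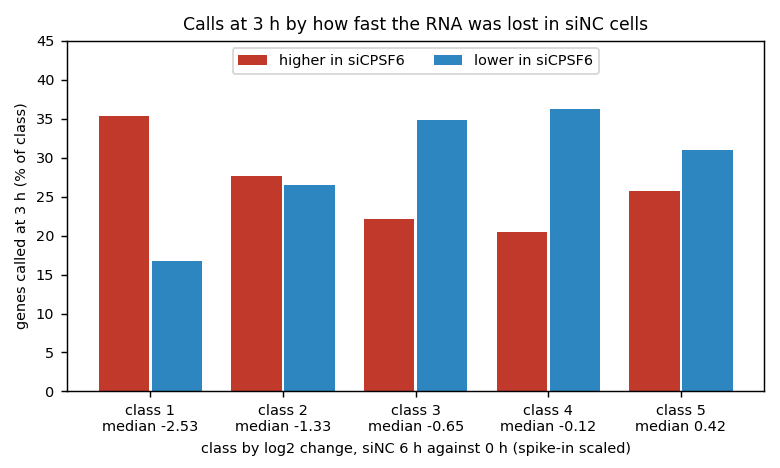
Share of genes called higher (red) or lower (blue) in siCPSF6 cells at 3 h, in 5 classes of genes ordered by their log2 change in siNC cells at 6 h against 0 h (x axis, with the class median), as a percentage of each class (y axis). Higher calls outnumber lower ones in class 1 (35.4% against 16.8%) and lower calls outnumber higher ones in class 4 (36.2% against 20.4%).

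The 37 lists of genes grouped by function are described by how many members passed in each direction, to be read against 26.2% higher and 29.1% lower over all genes and a median of -0.03. Up to 4 members of each list with the smallest p are named, and further members were named after their values were seen. Counts of lower members depend on the scaling: under spike-in scaling, where 2665 of all genes were higher and 2376 lower, the lower members went to 14 in nuclear complex I, 10 in complexes II to V, 9 in cytosolic ribosomal proteins, 8 in SR proteins and hnRNPs, 4 in paraspeckle components, 11 in mitochondrial ribosomal proteins, 4 in 3′ end processing, 7 in mRNA decay, 4 in fatty acid metabolism, 9 in mitosis and 2 in the proteasome.

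Chaperones of the endoplasmic reticulum, which fold and check secreted proteins, had the largest share of higher members of the 37 lists. Of 26 genes 19 were higher and 3 lower, with a median of 0.60, and their summed counts ran from 536925 to 572734 in siCPSF6 cells against 326807 to 351985 in siNC cells. DNAJC3, a co-chaperone that also inhibits the stress kinase PERK, had 3906 and 3444 counts in siCPSF6 cells against 1251 and 1184 in siNC cells (1.59, SE 0.08, adjusted p = 1.3e-09). CALR, the lectin chaperone calreticulin, had 94532 and 91138 against 36890 and 37445 in siNC cells (1.32, SE 0.06), and HSPA5, the main Hsp70 of the compartment, had 92854 and 84485 against 45591 and 42874 (1.0, SE 0.08). SDF2L1 and MANF rose by 1.48 and 1.15. The 3 lower members were not chaperones of the lumen: XBP1, the transcription factor activated by IRE1, had 596 and 632 counts in siCPSF6 cells against 1552 and 1612 in siNC cells (-1.36, SE 0.08, adjusted p = 5.4e-09), and HERPUD1 and SEC61B fell by 0.35 and 0.45 on the log2 scale.

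The integrated stress response list showed no such common shift, with 9 higher and 4 lower of 25 and a median of 0.13. TRIB3, a pseudokinase induced by ATF4, had 1042 and 1055 counts in siCPSF6 cells against 259 and 283 in siNC cells (1.95, SE 0.09, adjusted p = 5.9e-10). MTHFD2, of mitochondrial folate metabolism, and the kinase PERK (EIF2AK3) rose by 0.78 and 1.05, and PSAT1, of serine synthesis, fell by 0.39 on the log2 scale. ATF4 itself fell by 0.28.

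Notch and Wnt genes were mostly higher: 20 of 33 rose and 1 fell, with a median of 0.63. LRP6, a Wnt co-receptor, had 1993 and 1745 counts in siCPSF6 cells against 607 and 679 in siNC cells (1.54, SE 0.09, adjusted p = 6.5e-09). JAG1, a Notch ligand, had 2501 and 1978 against 1058 and 1030 in siNC cells (1.09, SE 0.10). The feedback inhibitors of Wnt signalling NKD1, at 15756 and 13864 against 7143 and 7095, and ZNRF3, at 1146 and 929 against 563 and 590, rose by 1.05 and 0.84. The receptors NOTCH2 and NOTCH3 rose by 0.98 and 1.97, and the only member that fell was KREMEN1, a co-receptor of Dickkopf proteins (-0.39).

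Of 26 matrix and proteolysis genes 15 were higher and 2 lower, with a median of 0.43. Beside MMP2 and VCAN, the sheddases ADAM10 and ADAM17, which cut membrane proteins such as Notch receptors and growth factor precursors, had 7813 and 7485 counts in siCPSF6 cells against 4208 and 4009 in siNC cells (0.90) and 2408 and 2254 against 1162 and 1189 (0.99). The 2 lower members were HSPG2, the basement membrane proteoglycan perlecan (-1.22), and COL18A1, a basement membrane collagen (-0.43).

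Immediate early genes and other short-lived AU-rich mRNAs were higher in 16 and lower in 2 of 39, with a median of 0.45. RHOB, a small GTPase induced by stress, had 1687 and 1413 counts in siCPSF6 cells against 501 and 481 in siNC cells (1.65, SE 0.09, adjusted p = 2.2e-09). BTG2, an antiproliferative factor that recruits deadenylases, had 338 and 341 against 88 and 100 in siNC cells (1.84, SE 0.12), and MYC had 328 and 233 against 149 and 102 (1.16, SE 0.19, adjusted p = 0.00032). JUND and ID2 were the 2 that fell. The list of proteins that bind AU-rich elements had 6 higher and 3 lower of 15 and a median of 0.23. ZFP36L1, which promotes decay of such mRNAs, rose by 1.23, the splicing and decay regulators CELF1 and RC3H2 rose by 0.86 and 0.68, and TIA1, a stress granule protein, fell by 0.86 on the log2 scale.

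Genes of cholesterol synthesis and uptake were higher in 12 and lower in 5 of 24, with a median of 0.32. The enzymes FDFT1 (squalene synthase), SC5D and CYP51A1 rose by 0.82, 0.78 and 0.88; FDFT1 had 15485 and 15624 counts in siCPSF6 cells against 8813 and 8774 in siNC cells. The 5 that fell included SREBF2, the transcription factor that drives this pathway, with 6070 and 5516 against 9026 and 8604 in siNC cells (-0.61, SE 0.08, adjusted p = 2.2e-05). Fatty acid metabolism was split, with 9 higher and 11 lower of 29 (median 0.01): the elongase ELOVL6 and the carboxylase ACACA rose by 1.73 and 0.70, and the acyl-CoA synthetases ACSL3 and ACSL4 by 0.89 and 0.62.

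**Figure D3:**
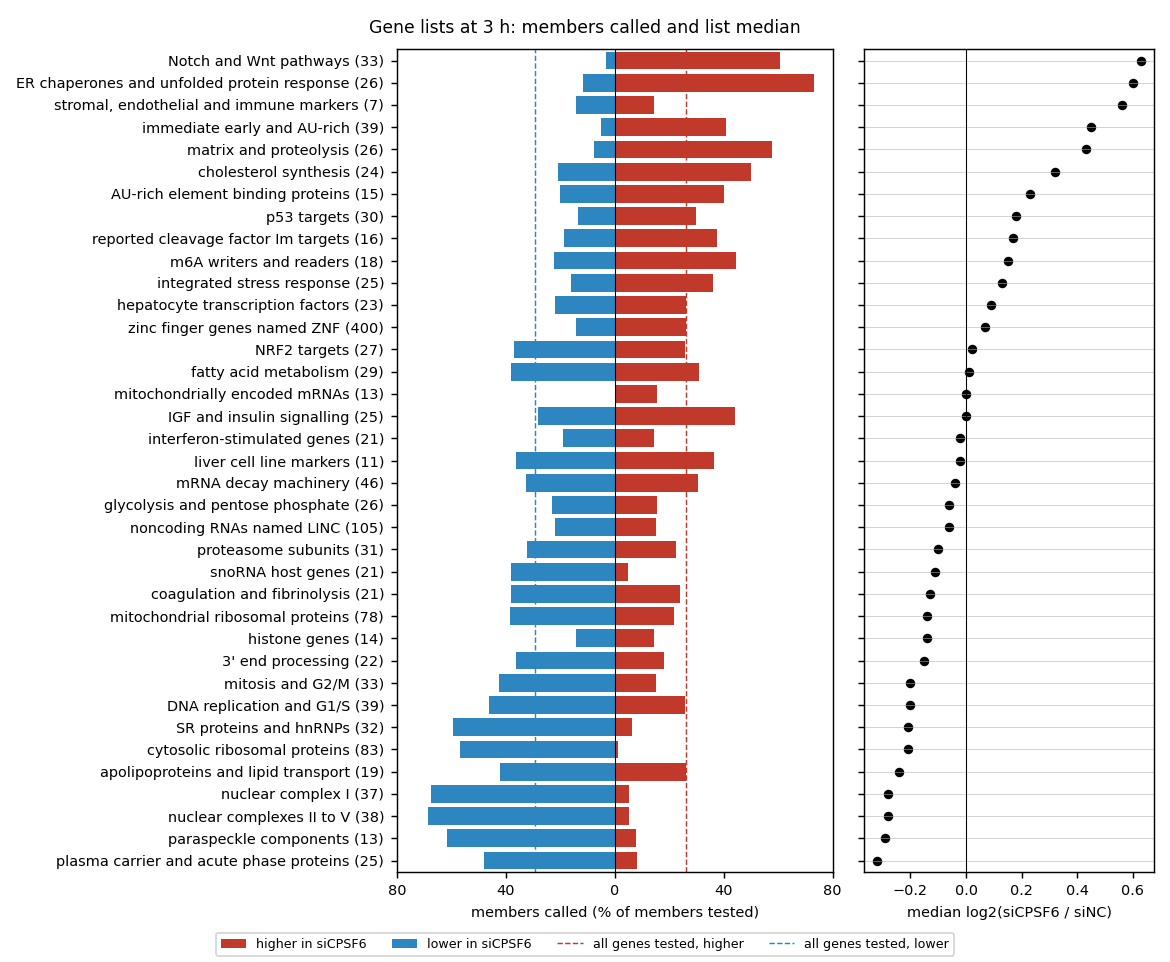
Left, members of each of the 37 lists called higher (red, to the right) and lower (blue, to the left) in siCPSF6 cells at 3 h, as a percentage of the members tested, whose number is in brackets; dashed lines give the shares over all 12939 genes (26.2% higher, 29.1% lower). Right, the median log2 difference of each list, from 0.63 for Notch and Wnt genes to -0.32 for plasma carrier and acute phase proteins.

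Nuclear genes of the respiratory chain were mostly lower in the normalized counts. Of 37 nuclear genes of complex I, the NADH dehydrogenase, 25 were lower and 2 higher (median -0.28), and of 38 nuclear genes of complexes II to V 26 were lower and 2 higher (median -0.28). Under spike-in scaling 14 and 10 were lower and none was higher, and in TPM 18 and 19 were lower. At 0 h the medians of these lists were -0.08 and -0.02. NDUFS1, the largest subunit of complex I, had 1745 and 1984 counts in siCPSF6 cells against 3979 and 3964 in siNC cells (-1.09, SE 0.08, adjusted p = 5.0e-08), and NDUFB9 had 1716 and 1973 against 3935 and 4135 (-1.13). NDUFB5 and NDUFB10 fell by 0.72 and 0.77 on the log2 scale. In complex III UQCRQ had 848 and 1006 against 1908 and 2031 in siNC cells (-1.09) and UQCR10 fell by 0.59, and COX5A of complex IV and ATP5PD of the ATP synthase fell by 0.52 and 0.49. NDUFS1, NDUFB9, UQCRQ and ATP5PD overlap genes on the opposite strand. Among the 4 members that rose, NDUFA8, ATP5PB and UQCRFS1 did so by 0.20 to 0.30.

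The 13 mRNAs encoded in mitochondrial DNA showed no such shift: 2 were higher (MT-CYB by 0.41 and MT-ND2 by 0.24), none was lower, and the median was 0.00. MT-CYB had 44151 and 45306 counts in siCPSF6 cells against 33310 and 34250 in siNC cells.

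Cytosolic ribosomal protein mRNAs were lower in 47 and higher in 1 of 83, but by little, with a median of -0.21 and summed counts of 1992071 to 2002207 in siCPSF6 cells against 2175198 to 2371883 in siNC cells. RPL27 had 11859 and 11912 counts in siCPSF6 cells against 19591 and 18353 in siNC cells (-0.67, SE 0.08, adjusted p = 6.7e-06), and RPL22, RPS29 and RPL27A fell by 0.57, 0.65 and 0.41. Under spike-in scaling the median was -0.19 and 9 members passed, all lower. That was a smaller share than over all genes, of which 2376 of 12939 were lower with that scaling. The median at 0 h was 0.06, and for 13 members the difference was more negative at 3 h than at 0 h by the test of the change. Over all 12939 genes 95 were, but only 6 under spike-in scaling and 3 in TPM, so that most of the 13 did not pass there. Many processed pseudogenes resemble these mRNAs, so that single members are uncertain. Mitochondrial ribosomal proteins were more mixed, with 17 higher and 30 lower of 78 (median -0.14): MRPL37 and MRPL2 fell by 0.84 and 0.81, and MRPL19 and MRPS2 rose by 0.61 and 0.65.

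Splicing factors of the SR and hnRNP families fell in 19 and rose in 2 of 32, with a median of -0.21. Under spike-in scaling 8 fell and 1 rose, and in TPM 12 fell and 3 rose. Apart from HNRNPLL, HNRNPA3 had 15499 and 15249 counts in siCPSF6 cells against 24335 and 24663 in siNC cells (-0.67, SE 0.06, adjusted p = 5.2e-07) and HNRNPH1 fell by 0.61. The 2 that rose were HNRNPF, at 7868 and 7949 against 5515 and 5586 (0.51), and HNRNPH3 (0.28), both close relatives of HNRNPH1. Paraspeckle components had 8 lower and 1 higher of 13 (median -0.29): SMARCA4, TAF15 and HNRNPK fell by 0.56, 0.42 and 0.34, and FAM98A rose by 0.48.

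Plasma carrier and acute phase genes were lower in 12 and higher in 2 of 25, with a median of -0.32. HP, the haemoglobin scavenger haptoglobin, had 1474 and 1601 counts in siCPSF6 cells against 3915 and 3368 in siNC cells (-1.24, SE 0.08, adjusted p = 2.5e-08), SERPINA3 had 7141 and 6461 against 19770 and 14959 (-1.34), and VTN and C5 fell by 0.76 and 0.45. TTR, the thyroxine and retinol carrier transthyretin, went the other way, at 1719 and 1873 against 970 and 889 in siNC cells (0.95, SE 0.09). ALB did not pass (-0.03).

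Coagulation genes went both ways, with 5 higher and 8 lower of 21 (median -0.13). The 3 fibrinogen chains were all higher: FGB had 3887 and 4316 counts in siCPSF6 cells against 1868 and 1789 in siNC cells (1.16, SE 0.09, adjusted p = 1.6e-07), and FGA and FGG rose by 0.47 and 0.46. The vitamin K-dependent genes PROC (protein C) and F10 fell with F7, by 0.72 and 0.87 on the log2 scale. Apolipoprotein and lipid transport genes had 5 higher and 8 lower of 19 (median -0.24); APOB and APOA4 rose, while APOC3 fell by 0.90 and ANGPTL8, an inhibitor of lipoprotein lipase, had 77 and 81 counts against 287 and 303 in siNC cells (-1.89, SE 0.13). Among 23 hepatocyte transcription factors 6 were higher and 5 lower (median 0.09). HNF4A, a central regulator of hepatocyte genes, had 2285 and 2396 counts in siCPSF6 cells against 3854 and 4060 in siNC cells (-0.76, SE 0.07, adjusted p = 5.2e-07); NR1H3 fell by 0.82, and NR0B2, a corepressor of nuclear receptors, rose by 0.91.

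Genes of the oxidative stress factor NRF2 went both ways, with 7 higher and 10 lower of 27 (median 0.02). NFE2L2, which encodes NRF2, had 1847 and 1593 counts in siCPSF6 cells against 868 and 794 in siNC cells (1.05, SE 0.08), and the cystine transporter SLC7A11 rose by 1.22. NQO1, a quinone reductase, had 16440 and 17556 against 24300 and 24883 in siNC cells (-0.53, SE 0.07, adjusted p = 7.4e-06), the aldo-keto reductase AKR1B10 had 523 and 494 against 1491 and 1880 (-1.72), and ABCC3 fell by 1.39. The p53 target list had 9 higher and 4 lower of 30 (median 0.18), with BTG2 and the death receptors TNFRSF10A and TNFRSF10B higher (1.30 and 0.61) and CDKN1A, the cell cycle inhibitor p21, at 527 and 526 against 1102 and 1171 in siNC cells (-1.11, SE 0.11).

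In the IGF and insulin list 11 genes were higher and 7 lower of 25, with a median of 0.00. Beside IGFBP4, IGF2R, which clears IGF2, had 17266 and 15083 counts in siCPSF6 cells against 7793 and 7531 in siNC cells (1.08, SE 0.09), and AKT1 rose by 0.83. FOXO1 fell by 0.97 on the log2 scale. Cell cycle genes were more often lower: 18 of 39 replication and G1/S genes fell and 10 rose (median -0.20), with CCND1 (cyclin D1) at 9578 and 9638 against 16048 and 16753 in siNC cells (-0.77), ORC2 lower by 0.78 in log2, and CDK6 higher (0.82). Of 33 mitotic genes 14 fell and 5 rose (median -0.20); TOP2A, KIF2C and KIF11 fell by 0.56, 0.56 and 0.58, and CENPF rose by 0.48.

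Genes of 3′ end processing gave 4 higher and 8 lower of 22, with a median of -0.15 (0.05 in TPM, so that its direction depends on the table). Beside CPSF6 itself, its partners NUDT21 and CPSF7 in cleavage factor Im were lower, at 4740 and 4977 counts in siCPSF6 cells against 6985 and 6990 in siNC cells (-0.53, SE 0.06, adjusted p = 6.1e-06) and at 1128 and 1199 against 1908 and 1861 (-0.70, SE 0.09). FIP1L1, which binds U-rich RNA beside the poly(A) signal, had 89 and 124 against 269 and 292 in siNC cells (-1.41, SE 0.19); it overlaps genes on both strands. The 4 that rose were CLP1 of cleavage factor IIm, at 195 and 203 against 76 and 62 (1.52), CSTF1 (1.21), RBBP6 (0.79) and CPSF2 (0.41). NUDT21 was higher in TPM (1.26, adjusted p = 1.5e-06), as its apparent length fell.

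Factors of mRNA decay were split, with 14 higher and 15 lower of 46 (median -0.04). The exosome subunit EXOSC3 had 842 and 906 counts in siCPSF6 cells against 350 and 330 in siNC cells (1.36, SE 0.12, adjusted p = 2.8e-07), whereas PAN2, a poly(A) nuclease, had 344 and 367 against 1019 and 929 (-1.45, SE 0.11) and UPF3A, of nonsense-mediated decay, fell by 0.89. In the m6A list 8 were higher and 4 lower of 18 (median 0.15): RBM15B rose by 1.37, and ZC3H13, a scaffold of the methyltransferase, had 235 and 275 against 803 and 813 in siNC cells (-1.66, SE 0.12), with YTHDC1 and FTO lower by 0.70 and 0.97 in log2. Of 16 mRNAs reported elsewhere as targets of cleavage factor Im 6 were higher and 3 lower (median 0.17); IGF1R and FNDC3B rose by 1.23 and 1.08.

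The remaining lists were near the shares over all genes or mostly did not pass. Zinc finger genes named ZNF had 105 higher and 57 lower of 400 (median 0.07; 0.24 in TPM), with ZNF704 at 680 and 514 counts in siCPSF6 cells against 151 and 122 in siNC cells (2.12). Proteasome subunits had 7 higher and 10 lower of 31, glycolysis and pentose phosphate genes 4 and 6 of 26, and interferon-stimulated genes 3 and 4 of 21. Hosts of snoRNAs had 1 higher and 8 lower of 21, histone genes 2 and 2 of 14, and noncoding RNAs named LINC 16 and 23 of 105. The liver marker list had 4 higher and 4 lower of 11, and the stromal, endothelial and immune list 1 and 1 of 7. In 14 of the 37 lists more members were higher than lower.

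Most genes called at 3 h also differed before the drug, although the lists of respiratory chain and ribosomal protein genes had medians near 0 at that time. Of the genes called at 3 h, 4606 were also called at 0 h with the same sign, which is 64.4% of the 3 h calls and 82.9% of the 0 h calls; at 6 h 4905 were, which is 68.6% of the 3 h calls and 68.1% of the 6 h calls. The group means of the 3 comparisons share no library. Their SEs come from 1 fit of all 12 libraries, so the calls are not independent of each other. Over the 12939 genes, which are not independent replicates, the log2 differences at 3 h correlated with those at 0 h at r = 0.83 and with those at 6 h at r = 0.74. The genes called at 3 h had a median absolute log2 difference of 0.41 at 0 h, 0.60 at 3 h and 0.51 at 6 h. Choosing genes by their call at 3 h by itself favours a larger value there, so these medians do not rank the times.

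The difference between the arms itself changed between 0 h and 3 h for 387 genes (2.99% of those tested), 292 more positive and 95 more negative at 3 h. With the replicate number as a block 1025 passed, 640 more positive and 385 more negative. Under spike-in scaling 177 passed, 171 of them more positive, and in TPM 56, of which 53 were more positive, so that the number on the negative side rests on the scaling. The 292 genes, chosen for this change, had a median log2 difference of 1.12 at 3 h and 0.32 at 0 h.

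SCO2 had the largest positive change. At 0 h it had 648 and 628 counts in siCPSF6 cells against 344 and 342 in siNC cells, and at 3 h 518 and 523 against 81 and 81, so that the siNC level was far lower at 3 h and the siCPSF6 level less so; the difference changed by 1.78 (SE 0.24, adjusted p = 0.0012). CDR2, which encodes a cytoplasmic protein known as a neuronal autoantigen, had 2872 and 2406 against 1623 and 1401 at 0 h and 1026 and 722 against 149 and 157 at 3 h (1.68, SE 0.21). DCLRE1B, a nuclease of telomeres, had 499 and 459 against 395 and 373 at 0 h and 208 and 228 against 55 and 62 at 3 h (1.56, SE 0.21). CTTNBP2NL, STBD1 and RGL1 changed by 1.64, 1.55 and 1.51. All 6 were closer between the arms at 0 h than at 3 h. STBD1 shares exons with a readthrough transcript, SCO2 with TYMP and another SCO2 entry, and CDR2 with RRN3P3. The source of their reads is thus uncertain.

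On the negative side, RBM15, a subunit of the m6A methyltransferase, had 1097 and 990 counts in siCPSF6 cells against 203 and 193 in siNC cells at 0 h, but 355 and 345 against 228 and 236 at 3 h, a change of -1.80 (SE 0.17, adjusted p = 0.00015). Its excess in siCPSF6 cells was thus largely lost within 3 h in the drug. JUND had 409 and 423 against 750 and 766 at 0 h and 86 and 68 against 454 and 494 at 3 h (-1.75, SE 0.23). UPK3BL1, PPT2-EGFL8, GLTPD2 and MIX23 changed by -1.40, -1.18, -1.17 and -1.12; the first 3 of them share exons with other genes, and GLTPD2 did not pass at 3 h itself (-0.30, adjusted p = 0.13).

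**Figure D4:**
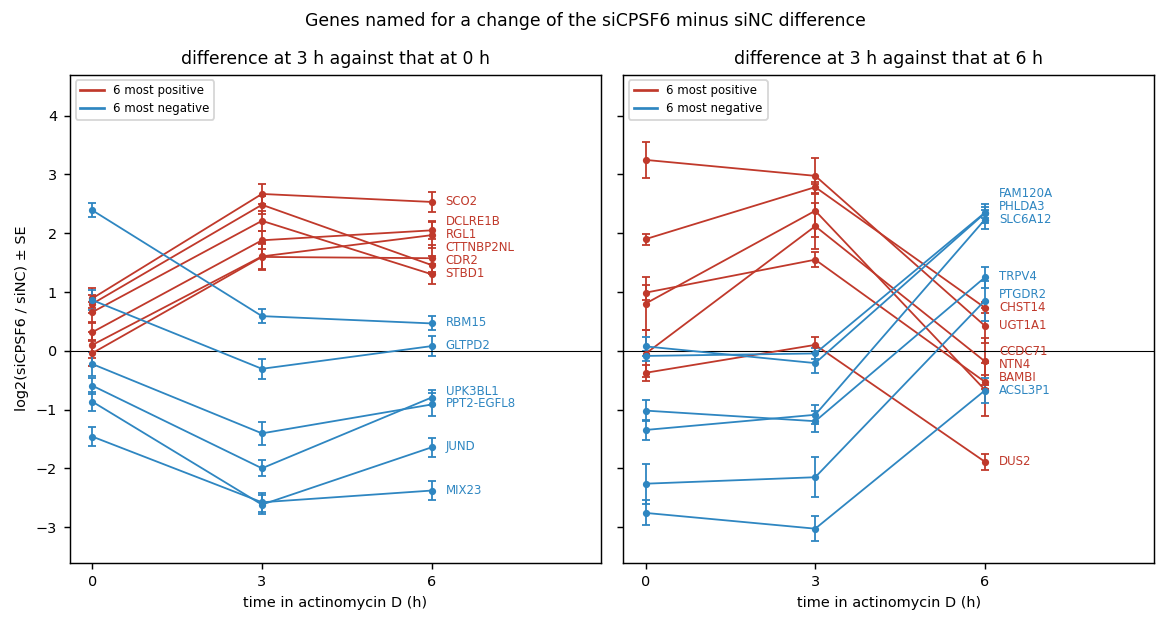
The log2 difference siCPSF6 minus siNC (y axis, with its SE) at 0, 3 and 6 h in actinomycin D (x axis) for the genes whose difference at 3 h departed most from that at 0 h (left) and from that at 6 h (right), with the 6 most positive in red and the 6 most negative in blue. RBM15 drops to 0.59 at 3 h with 2.39 at 0 h, and FAM120A, PHLDA3 and SLC6A12 stand above 2 at 6 h while none was above 0 at 3 h.

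Between 3 h and 6 h the difference changed for 1981 genes (15.3%), 966 of them more positive and 1015 more negative at 3 h; with the replicate number as a block 3189 passed, 1588 more positive and 1601 more negative. The 966 genes, chosen for this change, had a median log2 difference of 0.40 at 3 h and -0.24 at 6 h. CHST14 had 1721 and 1549 counts in siCPSF6 cells against 239 and 233 in siNC cells at 3 h and 2225 and 2064 against 1304 and 1270 at 6 h (change 2.05, SE 0.13, adjusted p = 2.3e-07). NTN4, which encodes netrin 4, had 323 and 362 against 116 and 116 at 3 h and 394 and 379 against 596 and 520 at 6 h (2.08, SE 0.17). In both genes the siNC values were the ones that moved most between the times, and they rose. The reason for such a rise while transcription was stopped was not tested. BAMBI, an inhibitor of TGF-beta signalling, UGT1A1, CCDC71 and DUS2 were the other 4, at 3.04, 2.55, 2.30 and 1.99.

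FAM120A, an RNA-binding scaffold, did not pass at 3 h, with 3414 and 2977 counts in siCPSF6 cells against 3368 and 3208 in siNC cells (-0.04, adjusted p = 0.70), and stood at 4270 and 3622 against 823 and 721 at 6 h (change -2.39, SE 0.13, adjusted p = 5.6e-08). SLC6A12, a betaine transporter, had 163 and 193 against 406 and 352 at 3 h and 200 and 220 against 48 and 40 at 6 h (-3.32, SE 0.23), so that its difference turned over. PHLDA3 (-2.55) likewise had arms close together at 3 h, while PTGDR2 (-3.00), TRPV4 (-2.45) and ACSL3P1 (-2.35) were lower in siCPSF6 cells at 3 h. In all 6 the siNC values were lower at 6 h than at 3 h.

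The deposited tables also carry a trace of transcript structure. A gene's count divided by its TPM follows the mean length of the transcripts to which RSEM assigned its reads, here called the apparent length, in log2 relative to the median gene of each library. Of 11827 genes with an apparent length, 3148 (26.6%) passed, 2439 longer and 709 shorter in siCPSF6 cells, but this split depends on how libraries are centred, since the median gene was longer by 0.06. Centred instead on the median deviation from each gene's own mean, 965 passed, 286 longer and 679 shorter; with no centring 740 passed, 36 longer and 704 shorter. Under all 3 centrings larger changes were mostly shortening: 290 genes shortened and 40 lengthened by over 0.5 as first centred, 288 and 18 with the other centring, and 376 and 16 with none.

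The 290 shortened genes had a median log2 difference of 0.00 in normalized counts, with 84 higher and 96 lower, shares near those over all 11827 genes (3209 higher and 3538 lower), and of 0.84 in TPM, with 214 higher and 6 lower (3133 and 2232 over all). The TPM rise follows by construction from an apparent length that falls while the count stays level. Their median apparent length difference was -0.63 at 0 h, -0.71 at 3 h and -0.57 at 6 h. They were chosen at 3 h, which by itself favours a larger difference at that time. The sign was the same at all 3 times for 275 of them, 26 of the 40 lengthened genes and 7878 of all 11827. No gene's length difference at 3 h passed as different from that at 0 h in limma (0 calls, 1249 at an unadjusted p under 0.05).

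MBNL3, a splicing regulator of the muscleblind family, was the most shortened. Its apparent length was -0.13 and -0.02 in siCPSF6 cells against 2.12 and 2.13 in siNC cells (difference -2.20, SE 0.07, adjusted p = 3.1e-05), while its counts were 6474 and 6915 against 14680 and 14997 (-1.15) and its TPM 136.8 and 134.2 against 58.7 and 63.8 (1.15). Counts and TPM thus gave opposite directions for this gene. NUDT21 had an apparent length of -0.96 and -1.0 against 0.62 and 0.80 in siNC cells (-1.69, SE 0.08, adjusted p = 0.0001). GSK3B, a kinase of Wnt and insulin signalling, had -0.32 and -0.74 against 1.22 and 1.11 (-1.69, SE 0.22), and ACER3, an alkaline ceramidase, had -0.13 and -0.04 against 1.65 and 1.62 (-1.72, SE 0.12). RPAP2, RORA, ZNF780A and the noncoding MAGI2-AS3 were shortened by 2.13, 2.09, 1.83 and 1.56 in log2.

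The farthest annotated 3′ ends of 4 of these genes are shown because a shift away from them is one way in which the apparent length can fall; the tables do not say which end was used. The last 30 bases of the transcript are given 5′ to 3′ in the sense of the mRNA, from GENCODE 29 on hg38, with the poly(A) signal (AATAAA or ATTAAA) and the core TGTA of the cleavage factor Im motif in capitals.
MBNL3, chrX:132369317-132369346, minus strand: ctatttAATAAAtgtgtgTGTAgtttattc
NUDT21, chr16:56429133-56429162, minus strand: tcatttcAATAAAaaatatttgaaagagaa
GSK3B, chr3:119821323-119821352, minus strand: tgctgcttcAATAAAaacaaatttatattc
ACER3, chr11:77026768-77026797, plus strand: ttaaATTAAAtaatattgttttgaataaga
All 4 ends carry a poly(A) signal, and TGTA stands within the last 30 bases in MBNL3 alone. The 30 bases printed do not show motifs further upstream. Within the last 100 bases the count of TGTA was 2 in MBNL3, 1 in NUDT21, 1 in ACER3 and 0 in GSK3B. The nearest and farthest annotated ends of protein-coding transcripts lie 9991 bases apart in MBNL3, 6269 in ACER3 and 5384 in GSK3B, while NUDT21 has 1 such end in this annotation.

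Over the farthest ends of 275 shortened genes with a protein-coding transcript, 80.7% held a poly(A) signal within the last 50 bases and 60.4% a TGTA within the last 100, on the transcript strand. The shares were 77.6% and 53.5% over 10871 genes with an apparent length. Annotated ends at least 500 bases apart were found in 83.6% of the shortened genes, against 56.3% of all; a gene with a single annotated end has fewer ways to change its apparent length. These are descriptions of annotated sequence, with no test.

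NEAT1, the noncoding RNA that scaffolds paraspeckles, was the most lengthened. It exists in a short polyadenylated and a long form that share their 5′ part, and cleavage factor Im is known to promote the short form. Its apparent length was 3.45 and 3.31 in siCPSF6 cells against 1.51 and 1.42 in siNC cells (1.92, SE 0.10, adjusted p = 0.00014). Its counts were 6010 and 7254 against 12712 and 14403 in siNC cells (-1.04, SE 0.24, adjusted p = 0.0086; 0.052 without siCPSF6 replicate 1) and its TPM 10.6 and 14.0 against 77.5 and 99.99. FANCM, KLHL18, LYN, PEX13 and ATP6AP1L were lengthened by 0.84 to 1.26, although LYN and ATP6AP1L did not pass with the other centring (adjusted p of 0.054 and 0.059). CPSF6 itself was lengthened by 0.67, with 1.5 and 1.49 in siCPSF6 cells against 0.76 and 0.90 in siNC cells.

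**Figure D5:**
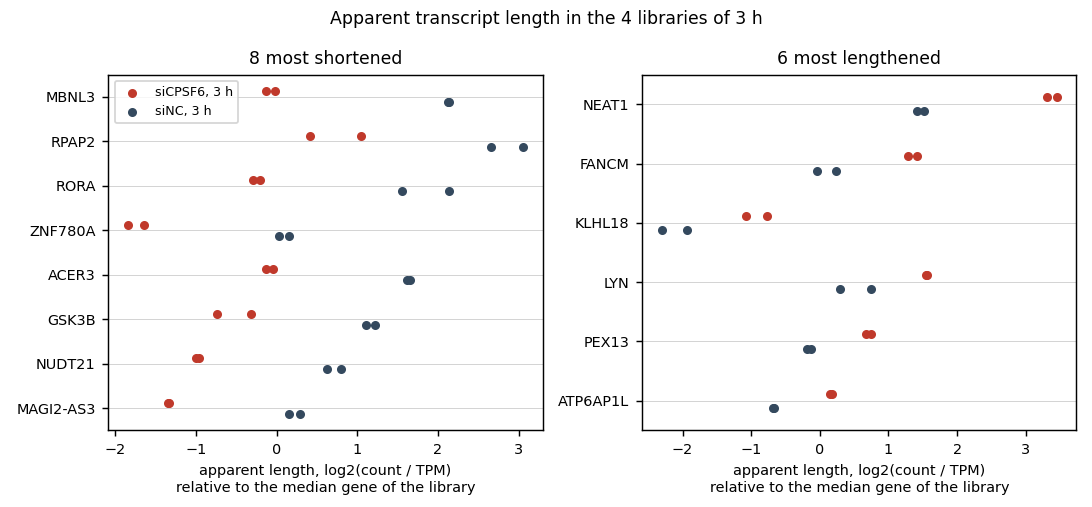
Apparent transcript length, log2(count / TPM) relative to the median gene of the library (x axis), of the 8 most shortened (left) and 6 most lengthened genes (right) in the 4 libraries of 3 h, in red for siCPSF6 and dark blue for siNC. MBNL3 lies at -0.13 and -0.02 against 2.12 and 2.13, and NEAT1 at 3.45 and 3.31 against 1.51 and 1.42.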

How the data were processed

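STAR, RSEM and hg38 are named in the submitters' processing notes; versions, annotation and strand setting: not given in the sources used here. By their values, the authors' normalized counts are a score, whole numbers with the same upper quartile in every library, so count models were not run. The deposited TPM values served as an alternative and for apparent length. Gene coordinates and overlaps are from GENCODE 29 on hg38, which matched 21694 of 22148 genes.

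Group means of log2(normalized count + 1) were compared with limma 3.58.1 (R 4.3.3, trend and robust settings) in 1 fit of all 12 libraries, for genes with a mean of at least 20, with Benjamini-Hochberg adjustment and a threshold of 0.05. Apparent length needed a mean TPM of at least 1 and values above 0 in every library. Estimated depth was 21800000 to 30300000 reads per library. On simulated data over 12939 genes, 61 of 67 changes of 1 and 43 of 66 of 0.5 (log2) at 3 h were recovered, with 5 false calls among 12739. These changes were placed only in genes with a mean of at least 100, so recovery in weaker genes was not tested. For length, over 11827 genes, 87 of 100 changes of 1 and 46 of 100 of 0.3 were recovered. Simulated replicates were independent, and far fewer genes were changed than the data called. Replicates correlated at 0.991 to 0.993. The departures from the group mean correlated at 0.11 to 0.24 between libraries of the same number, over 15 pairs of groups, so the numbers may pair libraries. This rests on the values. The main fit did not use the pairing, which enters only the alternative fit with a replicate block.

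Named genes are CPSF6; among passing genes averaging 100 or more and not named as clones, the 15 largest rises and falls at 3 h with groups apart, the 6 most positive and negative changes against 0 h and 6 h, and the 8 most shortened and 6 most lengthened; the 5 with the highest mean; and up to 4 members of each list with the smallest p. Some genes that these rules pick are not reported here. Members and lists were chosen with earlier results of these data known. Alternatives were other pseudocounts, filters, scalings and centrings, the TPM table, plain limma, a replicate block, fewer libraries and each library left out.

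Genes named above that share at least 10% of their exonic bases with another gene, and are uncertain for that reason, also include ADAM17, HSPG2, COL18A1, CYP51A1, ATP5PB, VTN, SERPINA3, RBM15B, MTHFD2, EIF2AK3, CCND1, ANGPTL8, NFE2L2, NQO1, TNFRSF10A, LINC01140, MRPL2, MRPS2, DUS2, PHLDA3 and ACTA2.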

Additional observations from a re-analysis of the deposited data

Results flagged for a closer look

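The difference between siCPSF6 and siNC cells was not the same at all times, by the test of the change itself (limma, adjusted over all genes). It passed for 387 genes between 3 h and 0 h and for 1981 between 3 h and 6 h. With the replicate number as a block, 1025 and 3189 passed. With 2 libraries in each group, no library could be examined as lying apart from the rest of its group.

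Against 0 h, the difference at 3 h was more positive by 1.78 in SCO2, 1.68 in CDR2, 1.64 in CTTNBP2NL, 1.56 in DCLRE1B, 1.55 in STBD1 and 1.51 in RGL1. It was more negative in RBM15 (-1.8), JUND (-1.75), UPK3BL1 (-1.4), PPT2-EGFL8 (-1.18), GLTPD2 (-1.17) and MIX23 (-1.12).

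Against 6 h, it was more positive by 3.04 in BAMBI, 2.55 in UGT1A1, 2.3 in CCDC71, 2.08 in NTN4, 2.05 in CHST14 and 1.99 in DUS2. BAMBI and CCDC71 rest on few counts, at 66 and 38 in siCPSF6 cells against 5 and 15 in siNC cells at 3 h for BAMBI and 36 and 44 against 10 and 7 for CCDC71. It was more negative in SLC6A12 (-3.32), PTGDR2 (-3.0), PHLDA3 (-2.55), TRPV4 (-2.45), FAM120A (-2.39) and ACSL3P1 (-2.35).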

How the results depend on the processing

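The number of genes differing at 3 h ran from 5041 to 7966 under the other settings. For the change from 0 h, against 387, 177 passed under spike-in scaling, 56 in TPM, 138 with no trend or robust setting, 1025 with the replicate block, 672 without the 6 h libraries (chosen after seeing the data) and 106 to 215 with a library left out. The change from 6 h gave 604 under spike-in scaling, 975 in TPM and 3189 with the replicate block, against 1981. Of 3148 genes with a changed apparent length, 156 passed in the 4 libraries of 3 h alone, 965 centred on the median deviation (chosen after seeing the data), 740 with no centring and 1741 to 2290 with a library left out. In 22 lists, against 14, more members were higher than lower in TPM.

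Of 3444 values of single results under other settings, 3338 kept their direction and call, 80 lost the call, 11 gained it and 15 turned over. In TPM, which falls as apparent length grows, MBNL3 (1.15), RPAP2 (0.92), ZNF780A (1.45), ACER3 (1.3), NUDT21 (1.26), MAGI2-AS3 (1.29), FANCM (-0.72), KLHL18 (-0.44), LYN (-0.54) and MT-ND4L (0.1) turned over. With a library left out, 4 differences that were not called turned over: DUS2 (-0.02 to 0.22), FAM120A (-0.14 to 0.05), MT-CO1 (-0.01 to 0.1) and EEF1A1 (-0.14 to 0.05). The block ended no call of a named gene. The changes from 0 h of PPT2-EGFL8, RGL1, CTTNBP2NL, MIX23 and GLTPD2 lost their call under several settings, those of CDR2 and JUND in TPM (adjusted p of 0.17 and 0.23), and the change from 6 h of CCDC71 without siCPSF6 replicate 2 or siNC replicate 2 of 3 h (0.051 and 0.056). The cause was not tested. With 2 libraries per group, p-values rest on a spread pooled over all 6 groups, and differences in weakly expressed genes are limited by depth.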
